A study of Homo sapiens with 6 samples.

Results

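The AP-1 transcription factors FOS, FOSB, FOSL1, FOSL2, JUN, JUNB, JUND, BATF, BATF3 and JDP2 were followed in EoL-1 cells, a human eosinophilic leukaemia cell line, with and without a knockout of ATF3. The 10 genes were taken by symbol as dimer partners and competitors of ATF3, from 35052 genes with a transcript in the files. All 10 passed the filter on low counts and were among the 13131 genes tested. Of the 6 libraries, 3 came from ATF3 knockout cells made with CRISPR/Cas9, and they were set against 3 from wild-type cells of the same line. The labels give no treatment other than the editing, and both groups were grown in the same medium with fetal bovine serum. Whether the knockout cells were 1 clone or a pool, and whether the libraries of a group came from separate cultures, is not given in the sources used here, so the p-values measure the spread between these samples, which may be technical. The series' design text speaks of a knockdown, and the groups here follow the samples' own labels.

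AP-1 is a family of basic leucine zipper (bZIP) proteins that bind DNA as pairs. FOS proteins cannot pair with themselves and need a JUN partner, while JUN proteins can also pair with one another. The BATF proteins and JDP2 pair with JUN proteins as well but lack the large activation domains of FOS, and ATF3, a stress-induced bZIP factor, joins the same network through JUN partners. In leukocytes these factors act on cytokine, protease and differentiation genes, and FOS and JUN are classic immediate-early genes whose mRNA appears and decays quickly after a stimulus.

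Depth was 26766103 to 30117281 estimated reads per library. ATF3 mRNA was not lost but was lower in the knockout libraries. It had 5.62, 8.33 and 4.52 CPM (read counts scaled to a common library total) in the 3 knockout libraries, against 22.9, 16.2 and 23.0 CPM in the 3 wild-type libraries (log2 fold change -1.75, SE 0.25, edgeR adjusted p = 0.0098). The libraries separated by group along the first principal component, which held 42.1% of the variance, with knockout scores of -35.5 to -21.0 and wild-type scores of 34.9 and 37.9, while wild-type replicate 2 scored 13.5. The labels name the cells as eosinophils, yet 8 of 12 eosinophil markers stayed under 1 CPM in every library and PRG3, CLC, IL5RA and GATA1 had no read. Summed CPM over the 12 markers was 137 to 215 in knockout libraries and 40.0 to 60.3 in wild-type libraries, carried by RNASE2, RNASE3 and MS4A3, which were the 3 that passed the filter and were all higher in knockout cells. For 8 monocyte and macrophage markers the sum was 595 to 1282 CPM in knockout and 129 to 584 CPM in wild-type libraries, with FCGR3A without a read and the wild-type maximum in replicate 2. Of the 4 tested, edgeR called LYZ and CSF1R higher and did not call VCAN (adjusted p = 0.297) or CD163 (0.269). The 7 neutrophil markers summed to 154 to 166 CPM in knockout and 72.5 to 87.0 CPM in wild-type libraries, with ELANE, AZU1, PRTN3 and LTF at 0. Of the 2 tested, edgeR called MPO higher and did not call CSF3R (adjusted p = 0.224). The 7 lymphocyte markers summed to 132 to 173 CPM in knockout and 113 to 136 CPM in wild-type libraries, with 0 of 2 tested genes called by edgeR, 1 at an unadjusted p under 0.05 and 1, NKG7, called by DESeq2, and with CD3E, CD3D and MS4A1 at 0. Of all genes tested edgeR called 21.1%. LYZ and CSF1R kept their edgeR calls in few of the fits without a library, with adjusted p-values of 0.0101 to 0.145 and 0.0110 to 0.126, and without wild-type replicate 1 all 6 marker calls were lost (0.0503 to 0.145). In that fit edgeR called 0 of 13385 genes. The part of these marker shifts in the results on AP-1 genes was not tested. In bulk RNA, fewer cells of a type and less RNA per cell cannot be told apart.

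Stretches of the promoters are shown because AP-1 and CREB/ATF proteins read short motifs, the TPA response element TGACTCA and the cyclic AMP response element TGACGTCA, and several AP-1 genes carry such letters close to their own starts. The sequences are those of RefSeq on GRCh38.p14, where 8 of the 10 genes were found with 10 starts, and BATF3 and FOSL1 were not in the table. Both strands of the 250 bases before each start were searched. The core of the cyclic AMP response element, TGACGT or its complement ACGTCA, was found before FOS, FOSB, FOSL2, JUND and JDP2, or 5 of 8 genes, against 8.62% of all genes and 7.1% of 35116 promoters. The 7-base TPA response element, TGACTCA or TGAGTCA, was found before 0 of 8 genes, against 4.2% of promoters. The motifs were chosen with the sequences known, and a match is a description of letters, not a bound site. The first 4 sequences belong to genes whose mRNA changed (FOS and JUNB higher in knockout cells, FOSL2 and JDP2 lower), and the last 2 to genes whose mRNA was not called. Capitals mark the motif letters.
FOS: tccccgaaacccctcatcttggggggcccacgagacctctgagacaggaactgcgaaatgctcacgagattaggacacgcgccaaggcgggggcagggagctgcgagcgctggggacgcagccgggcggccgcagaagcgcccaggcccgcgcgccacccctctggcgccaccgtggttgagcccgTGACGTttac
JUNB: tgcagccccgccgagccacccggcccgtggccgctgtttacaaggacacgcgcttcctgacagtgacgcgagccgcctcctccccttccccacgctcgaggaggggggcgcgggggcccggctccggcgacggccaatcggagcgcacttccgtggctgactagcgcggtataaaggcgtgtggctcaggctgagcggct
FOSL2: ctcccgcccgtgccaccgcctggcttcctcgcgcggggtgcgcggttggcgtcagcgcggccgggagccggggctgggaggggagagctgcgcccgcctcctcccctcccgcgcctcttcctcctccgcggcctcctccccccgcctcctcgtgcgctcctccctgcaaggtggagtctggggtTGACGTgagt
JDP2: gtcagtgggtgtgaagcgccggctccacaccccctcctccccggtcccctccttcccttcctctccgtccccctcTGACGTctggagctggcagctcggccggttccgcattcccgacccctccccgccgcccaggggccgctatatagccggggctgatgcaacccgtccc
JUND: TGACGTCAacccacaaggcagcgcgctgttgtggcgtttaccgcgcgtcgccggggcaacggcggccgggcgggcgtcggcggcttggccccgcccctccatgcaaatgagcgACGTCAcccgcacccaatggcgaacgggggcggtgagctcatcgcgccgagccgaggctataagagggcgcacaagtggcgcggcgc
JUN: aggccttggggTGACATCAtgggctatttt
The FOS stretch is chr14:75278578-75278773 on the plus strand, and its TGACGT begins 64 bases before the start. The JUNB stretch, chr19:12791286-12791485 on the plus strand, holds none of the searched letters. In FOSL2, chr2:28392608-28392801 on the plus strand, TGACGT begins 66 bases before the start. JDP2 has 3 starts in the table, and the motif lies 97 bases before the second of them, in chr14:75427850-75428021 on the plus strand. In the annotation used for counting, JDP2-201, with 83.6% of JDP2 reads, begins at chr14:75432134, downstream of all 3. The bases just before that start were not searched. JUND, chr19:18281623-18281822 on the minus strand, has the full element TGACGTCA 200 bases before its start, which holds TGACGT and ACGTCA overlapping, and a further ACGTCA 87 bases before it. The full element occurred in 1.65% of promoters. The JUN stretch, chr1:58784096-58784125 on the minus strand, shows TGACATCA 67 bases before the RefSeq start, the variant of the TPA response element known for JUN's control of its own gene. In the annotation used for counting, JUN reaches chr1:58784327, so this stretch lies inside its transcript. That variant, on either strand, occurred in 2.37% of promoters. Of the 5 genes with the core motif, FOS was higher, FOSL2 and JDP2 were lower and FOSB and JUND were not called. Whether these letters bear on the changes was not tested.

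The comparison of knockout with wild-type cells asked how mRNA of the AP-1 partners stood once ATF3 was edited. FOS and JUNB were higher in ATF3 knockout cells, BATF3, JDP2 and FOSL2 were lower, and FOSB, FOSL1, JUN, JUND and BATF were not called. The falls in BATF3 (2.88-fold) and JDP2 (1.53-fold) and the rise in FOS (2.34-fold) were the larger changes, while JUNB (1.28-fold higher) and FOSL2 (1.20-fold lower) moved little. That is 5 of 10 genes at an adjusted p under 0.05 in edgeR's quasi-likelihood test, against 21.1% of all genes tested. Of the 10, 2 were called higher, against 11.4% of all genes, and 3 lower, against 9.72%. The groups did not overlap in CPM for 8 of the 10, against 43.5% of all genes tested, and JUN and JUND were the 2 that overlapped. The median log2 fold change over the 10 genes was 0.24, and 0.0054 over all genes tested. For a single gene the exact 2-sided permutation test over 3 against 3 libraries cannot go below 0.1, and it gave 0.1 for each of the 8 genes without overlap, 0.7 for JUN and 1 for JUND. The calls lean on few libraries. With wild-type replicate 1 or wild-type replicate 3 left out, edgeR called 0 of the 10, with 6 and 7 at an unadjusted p under 0.05, while DESeq2 called the same 5 in both cases and limma-voom called 0. Over all genes edgeR then called 0 of 13385, and 210 higher and 148 lower of 13402. DESeq2 called 1073 higher and 963 lower, and 1202 higher and 1012 lower. Leaving out knockout replicate 1 left the edgeR call of FOS alone, leaving out knockout replicate 2 left 3 calls, and leaving out wild-type replicate 2 gave 6, BATF being added. Over all genes edgeR called 741 higher and 665 lower, 929 and 792, and 1342 and 1131 in these fits.

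**Figure D1:**
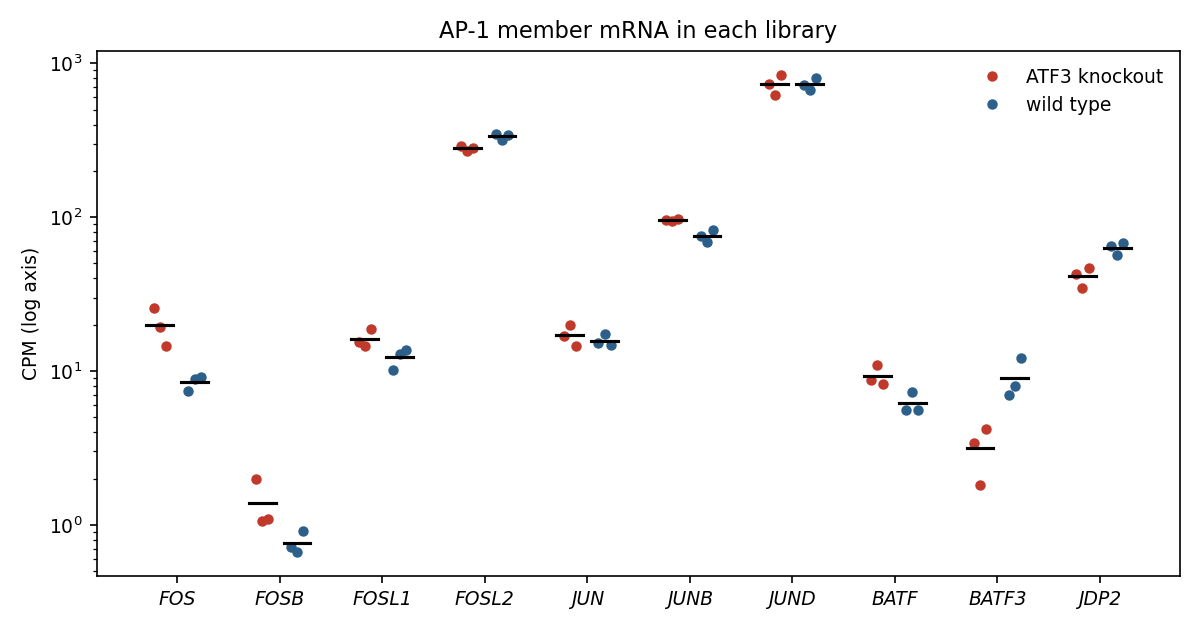
CPM on a log axis of each AP-1 gene in the 3 ATF3 knockout libraries (red) and the 3 wild-type libraries (blue), with a black bar at the group mean. The red and blue points overlap for JUN and JUND only, and the gap is widest for FOS and BATF3.

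**Figure D2:**
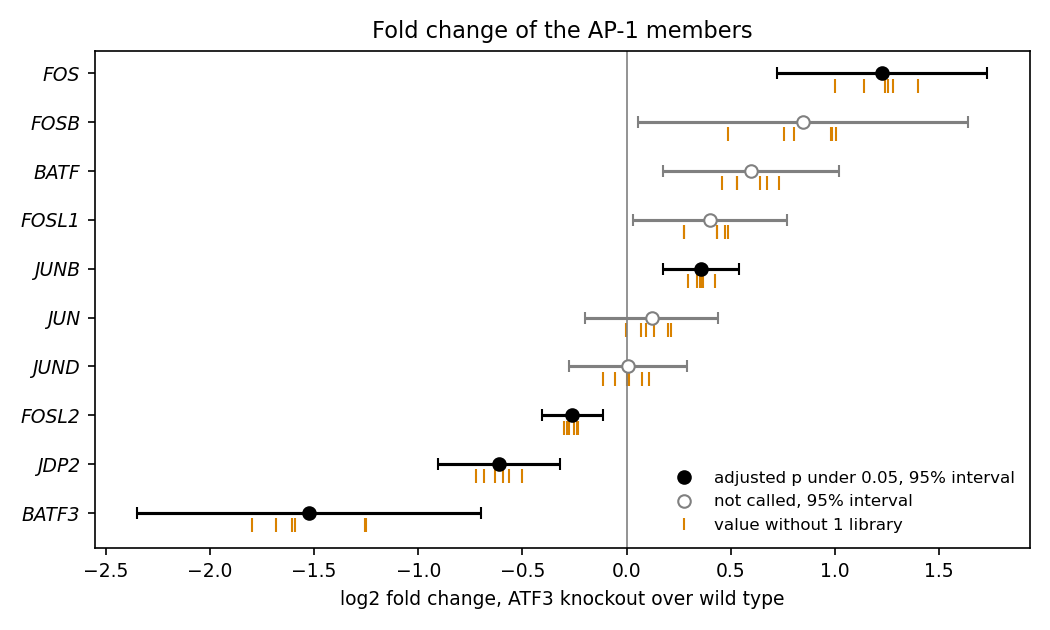
Log2 fold change of each gene, ATF3 knockout over wild type, with its 95% interval from edgeR. Filled points are called at an adjusted p under 0.05, open points are not, and orange ticks give the value with 1 library left out, which kept the sign for every gene except JUN and JUND.

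FOS, the founding member of the FOS family and an immediate-early gene, rose more than any other member when all its transcripts were summed. Its main spliced transcript alone, FOS-201, had a log2 fold change of 0.73, below that of FOSB (0.85, not called). FOS lies at chr14:75278774-75282230 on the plus strand (GRCh38, ENSG00000170345.9). The knockout libraries held 666, 535 and 423 estimated reads, or 25.6, 19.5 and 14.5 CPM, against 207, 252 and 250 reads, or 7.46, 8.85 and 9.11 CPM, in wild-type libraries. Every knockout library was above every wild-type library, and the knockout libraries differed more among themselves than the wild-type ones. Means were 19.9 ± 5.57 CPM in knockout and 8.48 ± 0.888 CPM in wild-type cells (SD, n = 3 each). The log2 fold change was 1.23 (SE 0.21, 95% interval 0.72 to 1.73, edgeR adjusted p = 0.0134). The edgeR adjusted p was 0.0688 with wild-type replicate 1 left out and 0.0544 with wild-type replicate 3 left out, at log2 fold changes of 1.14 and 1.28.

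The added FOS reads fell in large part on annotated transcripts other than the main spliced one. FOS-201, the main spliced transcript, had 345.2, 367.4 and 290.5 estimated reads in knockout libraries and 186.1, 206.7 and 218.7 in wild-type libraries. FOS-206, with 367 of its 1280 bases inside introns of FOS-201, had 135.9, 53.8 and 49.0 reads in knockout libraries against 2.82, 20.2 and 8.04 in wild-type libraries. FOS-208, with 234 of 1496 bases inside those introns, had 74.3, 53.2 and 32.2 reads in knockout libraries and 7.09, 11.9 and 6.14 in wild-type libraries. In each of these transcripts all knockout libraries were above all wild-type libraries. Not every remaining transcript holds intron bases: FOS-203, with 0, had 0, 18.8 and 22.8 reads in knockout libraries and 6.38, 0 and 0 in wild-type libraries. Reads outside FOS-201 made up 48.2, 31.3 and 31.3% of FOS reads in knockout libraries, against 10.1, 18.0 and 12.5% in wild-type libraries. The shares did not overlap, and knockout replicate 1 stood highest.

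A fit with FOS-201 and the remaining FOS transcripts as separate rows was added after these values were seen. FOS-201 alone averaged 12.2 ± 1.94 CPM in knockout and 7.32 ± 0.640 CPM in wild-type cells (SD, n = 3 each), a log2 fold change of 0.73 (SE 0.16, edgeR adjusted p = 0.0219). The other FOS transcripts averaged 7.67 ± 4.12 CPM in knockout and 1.16 ± 0.413 CPM in wild-type cells, a log2 fold change of 2.72 (SE 0.45, edgeR adjusted p = 0.0124). Both rows were therefore higher in knockout cells, and the difference between their fold changes was not tested. Leaving out knockout replicate 1, the library with most of these reads, gave 2.20 for the other transcripts (edgeR adjusted p = 0.0281). With wild-type replicate 1 or 3 left out that row had adjusted p-values of 0.0630 and 0.0568 in edgeR. FOS-201 held its call only without knockout replicate 3 or wild-type replicate 2, and its edgeR adjusted p was 0.0584 to 0.0961 without each of the other 4 libraries. Over all genes, the share of reads on transcripts annotated as retaining an intron was 5.03, 5.05 and 5.28% in knockout libraries and 5.09, 5.04 and 4.83% in wild-type libraries, so the groups overlapped. No FOS transcript carries that annotation, so this share does not cover reads placed on the FOS transcripts that hold intron bases. Estimates per transcript do not show whether those reads fell on the intron bases. Whether reads on transcripts of that kind rose over all genes was not tested. Salmon divides reads among overlapping transcripts by estimation, which limits how firmly reads can be placed on one of them.

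**Figure D3:**
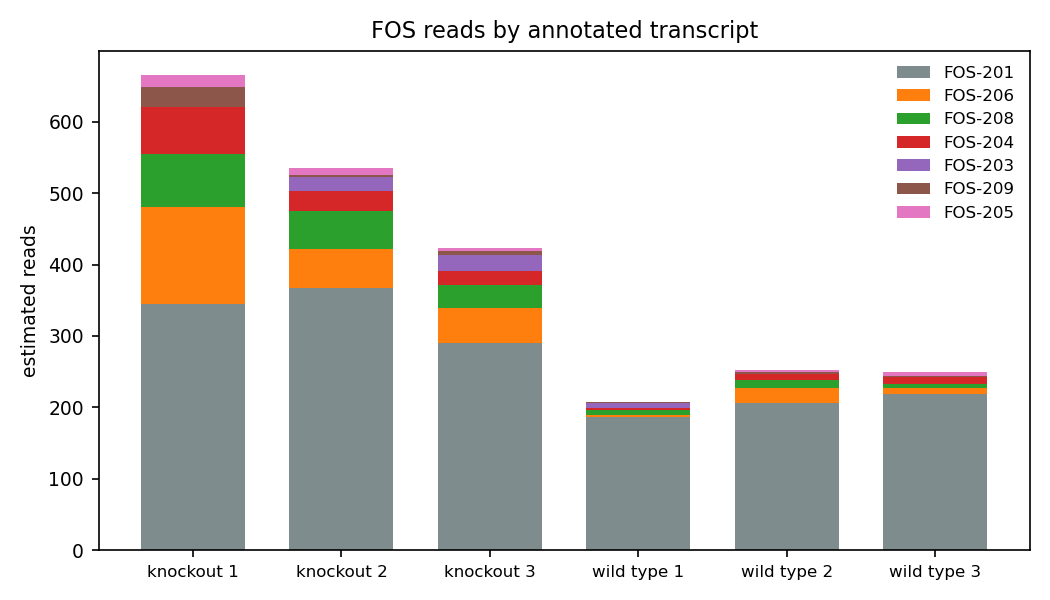
Estimated reads of FOS in each library (3 ATF3 knockout libraries left, 3 wild-type libraries right), stacked by annotated transcript with FOS-201 in grey at the base. Grey bars reach 290.5 to 367.4 reads in knockout and 186.1 to 218.7 in wild-type libraries, and the coloured remainder is 132.5 to 320.8 against 20.9 to 45.3 reads.

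FOSB, the FOS-family gene closest to FOS in its rapid induction, was barely expressed. It lies at chr19:45467995-45475179 on the plus strand (ENSG00000125740.13) and had 52, 29 and 32 reads in knockout libraries, against 20, 19 and 25 in wild-type libraries. These are 2.00, 1.05 and 1.10 CPM in knockout and 0.721, 0.668 and 0.911 CPM in wild-type libraries. The groups did not overlap, but knockout replicate 1 alone was well above the rest and the difference was not called (log2 fold change 0.85, SE 0.33, 95% interval 0.05 to 1.64, edgeR adjusted p = 0.114). Without knockout replicate 1 the log2 fold change was 0.49, and with the length offset it was 0.28 (edgeR adjusted p = 0.719). In TPM, the deposited values scaled for length, the groups overlapped, with 0.505, 0.325 and 0.549 in knockout and 0.203, 0.353 and 0.561 in wild-type libraries. At this depth its transcripts could not be followed, since all 52 reads of knockout replicate 1 were placed on FOSB-201, which had 0 reads in the other 5 libraries.

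FOSL1, or FRA-1, which lacks the strong activation domain of FOS, lies at chr11:65892049-65900573 on the minus strand (ENSG00000175592.8). It had 15.4, 14.5 and 18.7 CPM in knockout libraries and 10.1, 12.9 and 13.8 CPM in wild-type libraries. Knockout replicate 2 was only slightly above wild-type replicate 3, and the groups did not overlap. The log2 fold change was 0.40 (SE 0.16, 95% interval 0.03 to 0.77) and was not called (edgeR adjusted p = 0.112). FOSL1-201 held 85.3% of its reads.

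FOSL2, or FRA-2, was the most abundant of the FOS family and the only one of the family called lower. It lies at chr2:28392448-28417312 on the plus strand (ENSG00000075426.11). Its level was 290.5, 269.2 and 281.8 CPM in knockout libraries, against 347.6, 319.0 and 341.6 CPM in wild-type libraries. All knockout libraries lay below all wild-type libraries, with a narrow spread in both groups. Means were 280.5 ± 10.7 CPM in knockout and 336 ± 15.1 CPM in wild-type cells (SD, n = 3 each). The log2 fold change of -0.26 (SE 0.06, 95% interval -0.41 to -0.12) was called by edgeR (adjusted p = 0.0285). The call ended in edgeR when knockout replicate 1 (adjusted p = 0.0574), knockout replicate 2 (0.0624), wild-type replicate 1 (0.126) or wild-type replicate 3 (0.113) was left out. FOSL2-201 held 96.1% of its reads.

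JUNB was the JUN gene that changed. JUNB is a JUN-family protein that activates weakly from single sites and can hold JUN in check. It lies at chr19:12791496-12793315 on the plus strand (ENSG00000171223.5) and has no introns. It had 96.5, 94.7 and 97.9 CPM in knockout libraries, against 74.9, 68.8 and 82.2 CPM in wild-type libraries. The 3 knockout libraries were close together and all above the wild-type libraries. Means were 96.4 ± 1.56 CPM in knockout and 75.3 ± 6.71 CPM in wild-type cells (SD, n = 3 each). JUNB thus had a log2 fold change of 0.36 (SE 0.08, 95% interval 0.17 to 0.54, edgeR adjusted p = 0.0223). The call ended in edgeR without knockout replicate 1 (adjusted p = 0.0635), knockout replicate 2 (0.0513), wild-type replicate 1 (0.0988) or wild-type replicate 3 (0.0510), with the same sign. JUNB shares 259 of its 1820 exon bases with HOOK2 on the opposite strand. HOOK2 had 713, 799 and 797 reads in knockout and 536, 564 and 495 in wild-type libraries, and whether the authors' counting used strand is not given in the sources used here.

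JUN, the partner of FOS in the classic AP-1 dimer and itself an immediate-early gene, lies at chr1:58780788-58784327 on the minus strand (ENSG00000177606.6). It had 16.8, 19.8 and 14.6 CPM in knockout libraries and 15.1, 17.4 and 14.7 CPM in wild-type libraries. The groups overlapped, with knockout replicate 3 lowest of all 6 libraries and knockout replicate 2 highest. The log2 fold change was 0.12 (SE 0.14, edgeR adjusted p = 0.56), with a 95% interval of -0.20 to 0.44 that leaves room for a change of either sign. Without knockout replicate 2 the log2 fold change was -0.001.

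JUND, the JUN protein that is commonly present in resting cells, lies at chr19:18279760-18281622 on the minus strand (ENSG00000130522.5). It had 729.9, 627.2 and 844.9 CPM in knockout libraries, against 725.1, 666.5 and 797.8 CPM in wild-type libraries. Both the lowest and the highest library were knockouts, and the groups overlapped over the whole wild-type range. Its log2 fold change was 0.01 (SE 0.12, 95% interval -0.27 to 0.29, edgeR adjusted p = 0.97), and its sign turned with upper-quartile scaling (-0.013) and on leaving out knockout replicate 3 (-0.115) or wild-type replicate 2 (-0.055).

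BATF3 showed the largest fall of the 10 genes. BATF3 pairs with JUN proteins at composite sites with interferon regulatory factors, and in mice it is needed for the cross-presenting class of dendritic cells. It lies at chr1:212686418-212699985 on the minus strand (ENSG00000123685.8). The knockout libraries had 89, 50 and 122 reads, or 3.42, 1.82 and 4.18 CPM, and the wild-type libraries 193, 229 and 333 reads, or 6.96, 8.05 and 12.1 CPM. All knockout libraries lay below all wild-type libraries, and wild-type replicate 3 stood highest. Means were 3.14 ± 1.21 CPM in knockout and 9.05 ± 2.73 CPM in wild-type cells (SD, n = 3 each). Its log2 fold change was -1.52 (SE 0.35, 95% interval -2.35 to -0.70, edgeR adjusted p = 0.0259). The edgeR adjusted p became 0.0683 on leaving out knockout replicate 1, 0.0701 on leaving out wild-type replicate 1 and 0.0906 on leaving out wild-type replicate 3, while the log2 fold change stayed between -1.80 and -1.25 over the 6 fits without a library. The fall was seen on both transcripts with over 10% of the reads. BATF3-201, with 86.8% of the reads, had 78.4, 48.3 and 109 reads in knockout and 164, 188 and 294 in wild-type libraries. BATF3-203 had 10.6, 0 and 13.5 reads in knockout and 29.2, 37.5 and 35.8 in wild-type libraries.

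BATF, the paralog that pairs with JUN proteins in lymphocytes, lies at chr14:75522425-75547015 on the plus strand (ENSG00000156127.6). It had 228, 302 and 239 reads in knockout and 155, 207 and 154 in wild-type libraries, all on BATF-201. In CPM these were 8.77, 10.98 and 8.19 in knockout libraries, against 5.59, 7.27 and 5.61 in wild-type libraries. Every knockout library was above every wild-type library, with replicate 2 highest in both groups. The log2 fold change was 0.60 (SE 0.18, 95% interval 0.17 to 1.02) and missed the threshold (edgeR adjusted p = 0.0556), while DESeq2 called it (adjusted p = 0.0237). Without wild-type replicate 2 edgeR called it as well (log2 fold change 0.73, adjusted p = 0.0428).

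JDP2, a bZIP protein that pairs with JUN, ATF2 and related factors and mostly represses, lies at chr14:75427716-75474111 on the plus strand (ENSG00000140044.12). It had 42.5, 34.7 and 47.0 CPM in knockout libraries, against 65.2, 57.1 and 67.5 CPM in wild-type libraries. The knockout libraries all lay below the wild-type libraries. Means were 41.4 ± 6.18 CPM in knockout and 63.3 ± 5.49 CPM in wild-type cells (SD, n = 3 each). This gave a log2 fold change of -0.61 (SE 0.12, 95% interval -0.91 to -0.32, edgeR adjusted p = 0.0192). The call ended with each gene's average effective transcript length as an offset (log2 fold change -0.64, edgeR adjusted p = 0.0547). It also ended without knockout replicate 1 (0.0552), wild-type replicate 1 (0.0842) or wild-type replicate 3 (0.0769). JDP2-201, with 83.6% of the reads, had 818.5, 811.9 and 1189 reads in knockout and 1511, 1364 and 1589 in wild-type libraries, so it did not overlap between groups. JDP2-202 had 151.7, 70.9 and 97.4 reads in knockout and 205, 213.8 and 136.5 in wild-type libraries, and its groups overlapped.

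Levels were compared between genes in TPM, the deposited abundance scaled for transcript length and library, and these values carry no test. JUND made up most AP-1 mRNA, with 74.3% of the summed TPM of the 10 genes in knockout and 73.3% in wild-type cells. It averaged 521.5 ± 64.2 TPM in knockout and 490.6 ± 34.7 TPM in wild-type cells (SD, n = 3 each). In knockout cells it was 9.67 times the next gene, JUNB, and in wild-type cells 8.23 times the next gene, FOSL2. These values include JUND-202, a 500-base transcript with 5.29% of JUND reads. It held 177, 110.9 and 139.1 TPM in knockout and 138.7, 119.9 and 122.2 TPM in wild-type libraries. JUND-201 alone had 375, 336.9 and 425.7 TPM in knockout and 363.2, 331.7 and 396.2 TPM in wild-type libraries. The order of mean TPM in knockout cells was JUND, JUNB, FOSL2, JDP2, FOS, FOSL1, BATF, JUN, BATF3 and FOSB, and the libraries of FOS and FOSL1, FOSL1 and BATF, and JUN and BATF3 overlapped. In wild-type cells the order was JUND, FOSL2, JDP2, JUNB, BATF3, FOSL1, BATF, FOS, JUN and FOSB, and JDP2 and JUNB, FOSL1 and BATF, and FOS and JUN overlapped. JUNB was thus at rank 2 in knockout and 4 in wild-type cells, FOS at rank 5 and 8, and BATF3 at rank 9 and 5. The rank of FOS rests on all its transcripts, and those other than FOS-201 are shorter, so each read adds more TPM.

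JUNB had 53.9 ± 0.919 TPM in knockout and 40.4 ± 3.38 TPM in wild-type cells, and FOSL2 had 48.9 ± 1.52 TPM in knockout and 59.6 ± 0.493 TPM in wild-type cells (SD, n = 3 each). FOS had 15.5 ± 5.42 TPM in knockout and 4.84 ± 0.484 TPM in wild-type cells, a difference that holds the shift between FOS transcripts of unequal length. BATF3 had 4.41 ± 1.39 TPM in knockout and 11.9 ± 3.76 TPM in wild-type cells. The changes within a family offset one another in part. The 4 FOS-family genes summed to 84.8, 72.2 and 72.0 TPM in knockout and 70.3, 72.8 and 74.4 TPM in wild-type libraries, and these sums overlapped although FOS and FOSL2 moved in opposite directions. FOSL2 exceeded FOS 2.36, 3.25 and 4.60 times in knockout libraries, against 13.9, 11.7 and 11.7 times in wild-type libraries, with no overlap. These ratios and the FOS-family sums hold the shift between FOS transcripts as well. FOS-201 alone had 6.368, 6.562 and 4.585 TPM in knockout and 3.095, 3.322 and 3.608 TPM in wild-type libraries. All FOS transcripts together had 21.35, 14.59 and 10.62 TPM in knockout and 4.28, 5.066 and 5.162 TPM in wild-type libraries. BATF, BATF3 and JDP2 together summed to 48.5, 39.6 and 45.2 TPM in knockout and 61.0, 56.4 and 68.9 TPM in wild-type libraries, with no overlap. BATF was 2.25, 4.74 and 1.71 times BATF3 in knockout libraries but 0.724, 0.814 and 0.400 times BATF3 in wild-type libraries. The more abundant gene of this pair was therefore BATF in all 3 knockout libraries and BATF3 in all 3 wild-type libraries.

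**Figure D4:**
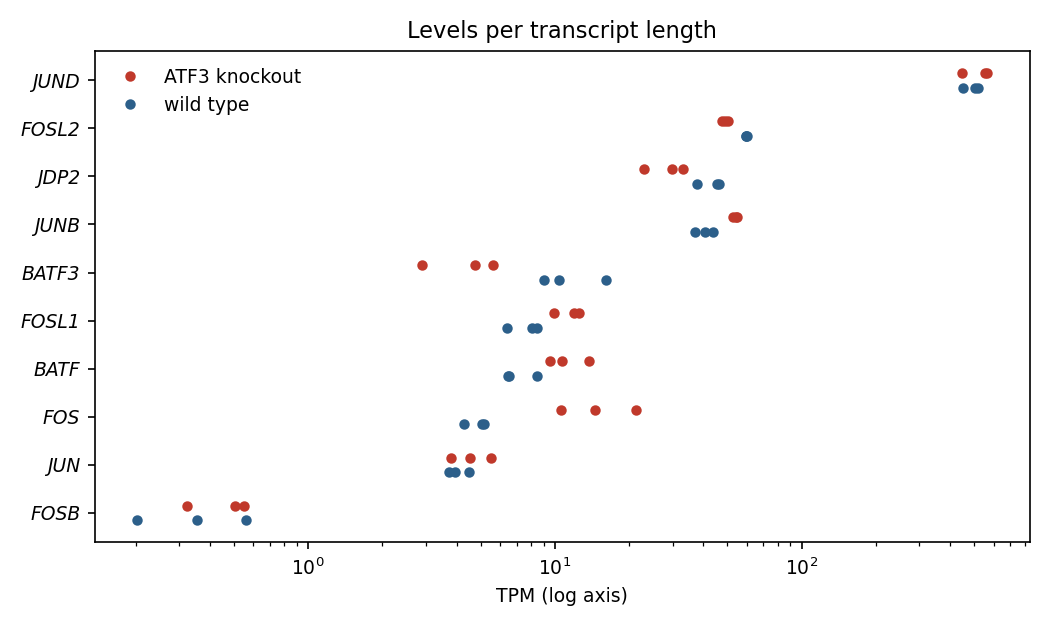
TPM on a log axis of each AP-1 gene in every library, ATF3 knockout in red above wild type in blue, ordered by the wild-type mean. JUND lies alone near 500 TPM, FOSB stays under 1 TPM, and FOS and BATF3 change places between the groups.

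Several of the genes are neighbours. BATF3 lies on chromosome 1 beside ATF3, the edited gene, with 65.64 kb between their annotated ends and 1 protein-coding gene, GARIN4, in between, which was too low to test. Of 10 genes flanking BATF3, 8 were tested, and edgeR called 2 lower and 1 higher, or 37.5%, against 21.1% of all genes. The lower ones were ATF3 itself, the edited gene, which the 37.5% counts, and TATDN3, a member of the TatD family of putative deoxyribonucleases. TATDN3 had 14.7, 14.1 and 14.6 CPM in knockout libraries and 31.3, 24.3 and 32.6 CPM in wild-type libraries (log2 fold change -1.03, SE 0.12, edgeR adjusted p = 0.0081). Its groups stood far apart, with the knockout libraries nearly equal. FLVCR1, a choline transporter gene first described as a haem exporter, was higher, with 21.7 ± 2.38 CPM in knockout and 16.9 ± 0.591 CPM in wild-type cells (SD, n = 3 each; log2 fold change 0.36, edgeR adjusted p = 0.0440). NSL1, which lies between BATF3 and TATDN3, had a log2 fold change of -0.32 and was not called (edgeR adjusted p = 0.0524), while RLE factors (0.0495), upper-quartile factors (0.0434) and DESeq2 (0.0233) called it. PPP2R5A (-0.03), PACC1 (0.12) and NENF (-0.06) on the far side of ATF3 and VASH2 (0.12) beyond FLVCR1 were not called. The median log2 fold change of the 8 was -0.05. On leaving out wild-type replicate 1 edgeR called 0 of the 8, with 4 at an unadjusted p under 0.05 and adjusted p-values of 0.0527 for ATF3 and 0.0503 for TATDN3. It called 0 of 13385 genes over all in that fit. FLVCR1 lost its call when any one library except knockout replicate 3 was left out (edgeR adjusted p 0.0654 to 0.154), with upper-quartile factors (0.0513), with limma-voom (0.0514), with no filter (0.0638) and with the length offset (0.224).

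FOS, JDP2 and BATF lie on the same strand of chromosome 14 in that order. The gap between FOS and JDP2 was 145.5 kb and that between JDP2 and BATF 48.31 kb, with 0 annotated protein-coding genes in either gap. FOS was called higher, JDP2 lower and BATF was not called (log2 fold change 0.60, edgeR adjusted p = 0.0556). Of 10 further genes around them, 9 were tested and edgeR called 0, against 21.1% of all genes, with 2 at an unadjusted p under 0.05, while DESeq2 called 2 and limma-voom none. Of all 13131 genes DESeq2 called 3576 and limma-voom 2760. TMED10, a carrier of vesicle cargo and the most abundant of them, had 250.4 ± 9.54 CPM in knockout and 282.9 ± 7.93 CPM in wild-type cells (SD, n = 3 each; log2 fold change -0.18, edgeR adjusted p = 0.0704). The median log2 fold change of the 9 genes was 0.02.

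**Figure D5:**
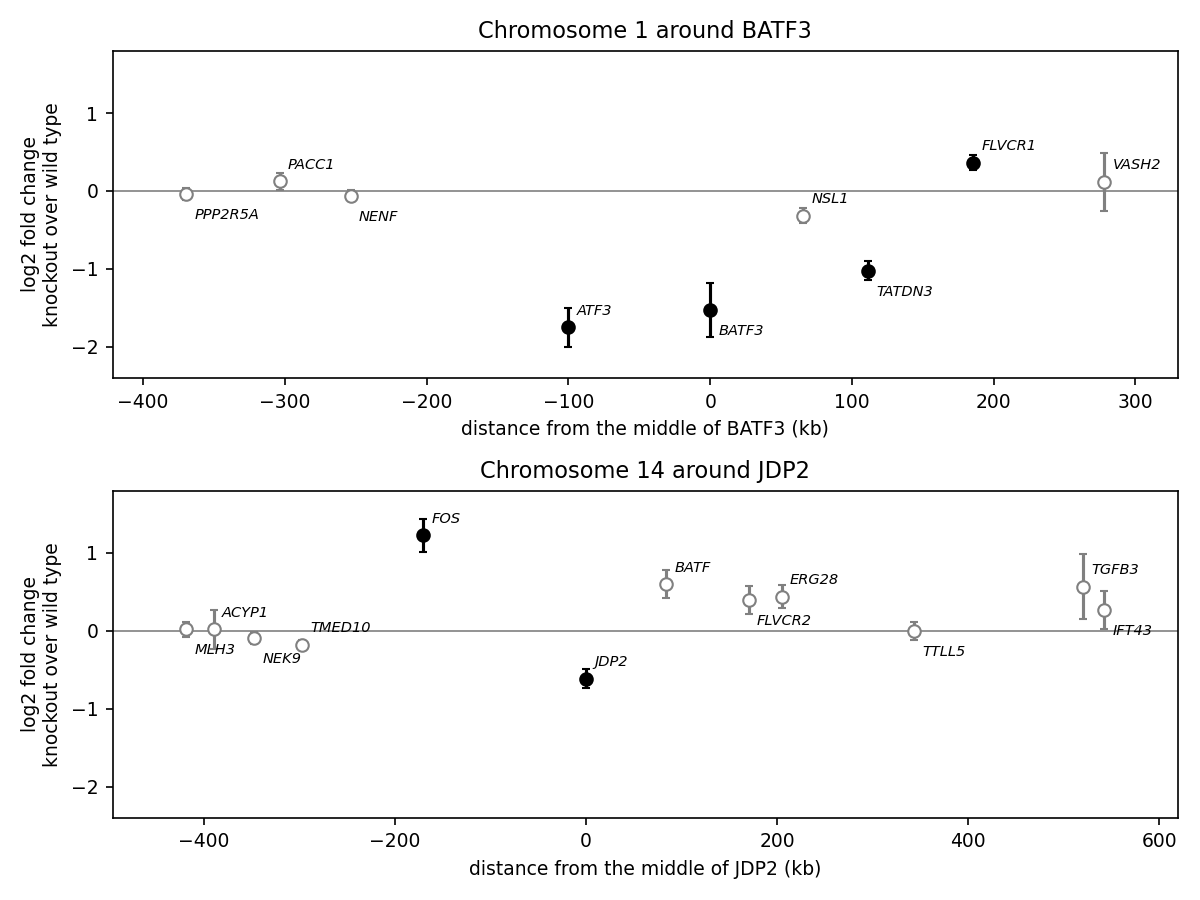
Log2 fold change of the tested genes around BATF3 on chromosome 1 and around JDP2 on chromosome 14, ATF3 knockout over wild type, against distance in kb from the middle of that gene (error bars SE; filled points called by edgeR at an adjusted p under 0.05). ATF3, BATF3 and TATDN3 lie at -1.75, -1.52 and -1.03 with genes near 0 to their left, and FOS at 1.23 and JDP2 at -0.61 lie among open points.

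Other bZIP factors and interferon regulatory factors that pair or act with AP-1 were read as a list of 14, of which 10 were tested and 4 called by edgeR, 2 higher and 2 lower (median log2 fold change -0.15). That is 40% of those tested, against 21.1% of all genes. Among those too low to test were BATF2, MAF and IRF4. IRF8, the myeloid factor that binds composite sites with BATF proteins, had 392.9, 302.1 and 279.1 CPM in knockout libraries and 99.9, 172.3 and 121.7 CPM in wild-type libraries. All knockout libraries were above all wild-type libraries (log2 fold change 1.31, SE 0.22, edgeR adjusted p = 0.0125). ATF7, a JUN partner related to ATF2, had 44.6 ± 2.18 CPM in knockout and 36.5 ± 0.630 CPM in wild-type cells (SD, n = 3 each; log2 fold change 0.29, edgeR adjusted p = 0.0254), and it shares 1456 exon bases with the read-through gene ATF7-NPFF. DDIT3, or CHOP, a stress-response bZIP protein, had 10.2, 6.55 and 10.9 CPM in knockout and 30.2, 18.4 and 30.1 CPM in wild-type libraries (log2 fold change -1.51, SE 0.26, edgeR adjusted p = 0.0133). DDIT3 shares 355 exon bases with MARS1 on the opposite strand. ATF4, the central activator of the integrated stress response, had 459 ± 53.8 CPM in knockout and 666 ± 37.6 CPM in wild-type cells (SD, n = 3 each; log2 fold change -0.54, edgeR adjusted p = 0.0144). Its groups did not overlap. The 4 edgeR calls ended when wild-type replicate 1 (adjusted p 0.0555 to 0.113, 5 genes at an unadjusted p under 0.05) or wild-type replicate 3 (0.0564 to 0.102, 4 genes) was left out, and that of ATF7 also with knockout replicate 2 left out (0.0655) or the length offset (0.156). Over all genes edgeR called 0 without wild-type replicate 1, and 210 higher and 148 lower without wild-type replicate 3.

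Kinases and regulators that switch FOS and JUN on or shorten the life of their proteins were mostly not called. All 27 on the list were tested, and edgeR called 1 higher and 2 lower, or 11.1%, below the 21.1% of all genes. The median log2 fold change was 0.03. RPS6KA1, the kinase RSK1, which acts on FOS protein and SRF, had 732 ± 17.1 CPM in knockout and 633 ± 7.22 CPM in wild-type cells (SD, n = 3 each; log2 fold change 0.21, edgeR adjusted p = 0.0298). MEF2C, a MADS-box factor that drives JUN transcription, had 15.9, 21.7 and 12.0 CPM in knockout libraries against 40.6, 48.5 and 30.7 CPM in wild-type libraries (log2 fold change -1.27, SE 0.25, edgeR adjusted p = 0.0170). RPS6KA5, the chromatin kinase MSK1, had 21.3 ± 2.26 CPM in knockout and 33.0 ± 5.13 CPM in wild-type cells (SD, n = 3 each; log2 fold change -0.63, edgeR adjusted p = 0.0230). In these 3 genes the groups did not overlap. With wild-type replicate 1 left out edgeR called 0 of the 27 (adjusted p 0.122 for RPS6KA1, 0.0721 for MEF2C and 0.0984 for RPS6KA5, 3 genes at an unadjusted p under 0.05). Without knockout replicate 1 it called 1, RPS6KA5 (0.0462), with MEF2C at 0.0562 and RPS6KA1 at 0.0843. Without wild-type replicate 2 it called 1, MEF2C (0.0366), with RPS6KA5 at 0.0564 and RPS6KA1 at 0.0616. Over all genes edgeR called 0 without wild-type replicate 1. It called 741 higher and 665 lower without knockout replicate 1, and 1342 higher and 1131 lower without wild-type replicate 2. RPS6KA1 also lost its call with wild-type replicate 3 left out (0.13), with upper-quartile factors (0.0508), no filter (0.0548) and the length offset (0.200), and RPS6KA5 with knockout replicate 2 left out (0.0621). DESeq2 on all libraries called 5 of the 27, and 3576 of 13131 genes over all.

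Genes known as AP-1 targets in other cells showed no common direction. Of 25 on the list 19 were tested, and edgeR called 4 higher (HMOX1 among them, which passed the filter on low counts only through its knockout libraries) and 1 lower, or 26.3%, against 21.1% of all genes, with a median log2 fold change of 0.07. Among those too low to test were CCND1, IL6, MMP1, MMP3 and MMP10. CDKN1A, the cyclin-dependent kinase inhibitor p21, had 203, 378 and 210 CPM in knockout libraries and 37.3, 77.8 and 59.2 CPM in wild-type libraries (log2 fold change 2.18, SE 0.34, edgeR adjusted p = 0.0110). MMP9, a gelatinase, had 23.5, 28.6 and 40.4 CPM in knockout and 10.6, 13.5 and 7.44 CPM in wild-type libraries (log2 fold change 1.55, SE 0.27, edgeR adjusted p = 0.0133). The groups stood apart in both genes. HMOX1, haem oxygenase 1, stayed at a very low level in both groups, with 1.21 ± 0.254 CPM in knockout and 0.204 ± 0.0920 CPM in wild-type cells (SD, n = 3 each; log2 fold change 2.55, edgeR adjusted p = 0.0106). TNF, the cytokine, was the remaining gene called higher (log2 fold change 0.64, edgeR adjusted p = 0.0319) and is named after its values were seen. CCL2, the monocyte chemoattractant, was the one called lower, with 43.4, 17.0 and 19.5 CPM in knockout and 98.6, 100.7 and 78.5 CPM in wild-type libraries (log2 fold change -1.80, SE 0.35, edgeR adjusted p = 0.0172). On leaving out wild-type replicate 1 edgeR called 0 of the 19, with adjusted p-values of 0.0510 to 0.105 for these 5 and 6 genes at an unadjusted p under 0.05. Of all 13385 genes in that fit it called 0 as well. With wild-type replicate 3 left out edgeR called 1 (HMOX1, 0.0469), and 210 higher and 148 lower of all 13402 genes in that fit. DESeq2, run on all 6 libraries, gave HMOX1 no adjusted p. TNF was also lost on leaving out knockout replicate 1 (0.0928), knockout replicate 2 (0.0839) or wild-type replicate 2 (0.0508).

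The genes whose profile over the 6 libraries lay nearest to each called member were sought among 8779 protein-coding genes with a mean of at least 10 CPM, by the root mean square distance between log2 CPM values centred on each gene's own mean. The distances are descriptions and carry no test. Nearest to BATF3 were CHAC1, an enzyme that degrades glutathione, at 0.248, and ASS1, argininosuccinate synthase, at 0.265. CHAC1 had 36.9, 19.5 and 38.2 CPM in knockout and 87.0, 65.1 and 91.3 CPM in wild-type libraries, with knockout replicate 2 lowest, as for BATF3. Among wild-type libraries replicate 2 was lowest for CHAC1 and replicate 1 for BATF3. Nearest to JDP2 was MARS1, the cytosolic methionyl-tRNA synthetase, at 0.0315. MARS1 had 344.8, 292.0 and 370.8 CPM in knockout and 524.0, 477.2 and 547.0 CPM in wild-type libraries, so that replicate 2 was lowest in both groups for MARS1 and JDP2 alike. ERMARD followed at 0.0355. For FOS the nearest were ATP8B2, a lipid flippase gene, at 0.145 and ANKRD50 at 0.171. ATP8B2 had 28.6 ± 3.99 CPM in knockout and 12.6 ± 2.41 CPM in wild-type cells (SD, n = 3 each). FOSL2 was nearest to AVL9 at 0.0224 and GHITM, a mitochondrial inner membrane gene, at 0.0228, and JUNB to ZNF248 at 0.0425 and ATN1 at 0.0428. Distances can be smaller for members with small fold changes, since the values of all libraries then lie close to the gene's mean. The order was not strict, as JDP2 (log2 fold change -0.61) had smaller distances than JUNB (0.36).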

How the data were processed

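RNA was measured in 6 libraries of EoL-1 cells (3 ATF3 knockout, 3 wild type) made from polyadenylated RNA with a stranded Illumina kit, per the labels. The authors deposited Salmon tables, which give an estimated count of reads, a TPM value scaled to a fixed total per library, and a length for each of 177456 transcripts, per the file headers. The submitters' processing notes name hg38, Salmon 1.6.0 and FastQC 0.11.9. Neither the transcriptome release nor the strand setting is stated in them or in the headers. Effective lengths in the files were the same in all 6 libraries. Transcripts were joined to genes by identifier with GENCODE 29, of which 167027 matched (155671 with the same version), and the 10429 without a gene, with 3.59 to 3.82% of the reads, stayed out. The estimates were added up per gene (35052 genes) and rounded, and 93% of the values above 0 were not whole.

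CPM and fold changes come from edgeR 4.0.16 in R 4.3.3, with TMM factors, filterByExpr at a minimum count of 10, the quasi-likelihood test, 4 residual degrees of freedom and Benjamini-Hochberg adjustment over all 13131 genes at 0.05. Coordinates are those of GENCODE 29, counted from 1. The test was run first on simulated counts with known changes. DESeq2 1.42.0, limma-voom 3.58.1, other scalings, no filter, a length offset, a replicate block and 6 fits without a library were the alternatives, and 1 more, the split of FOS, was added after seeing the data. No pair of libraries was close enough to be a duplicate. The members and all lists were chosen with earlier results of these data known. Named were all members, ATF3, per list up to 3 called genes in each direction ranked by p (or, with none called, its most abundant gene), and the 2 genes nearest in profile to each called member.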

Additional observations from a re-analysis of the deposited data

How the results depend on the processing

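Over 13 alternatives and the added FOS split, the signs of the 5 called genes and of FOSB, FOSL1 and BATF were the same as reported, and those of JUN and JUND were not. With the effective length offset 1383 genes were called (722 higher, 661 lower) against 2770 (1494 and 1276), and JDP2 was no longer called (-0.64). BATF passed with DESeq2 (0.59) and with the replicate block (0.60, edgeR adjusted p = 0.0445). JUND turned to -0.013 with upper-quartile factors. DESeq2 called 5 genes of the upstream list, against 3, and of the genes around FOS, JDP2 and BATF 1 was called with upper-quartile factors, 2 with DESeq2 and 1 with the replicate block, against 0. Over all genes DESeq2 called 3576, against 2770. The scaling alternatives moved the median of all genes to between -0.017 and 0.005, and upper-quartile factors turned the balance of calls to 1314 higher and 1410 lower. The causes of these changes were not tested.

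Leaving out 1 library gave 0 to 2758 called genes, 0 to 6 called members, 0 to 5 called partners, 0 to 4 upstream genes, 0 to 5 targets and 0 to 3 genes flanking BATF3. The log2 fold changes then spanned 1.00 to 1.40 for FOS, 0.49 to 1.01 for FOSB, 0.27 to 0.49 for FOSL1, -0.30 to -0.23 for FOSL2, -0.001 to 0.21 for JUN (lowest without knockout replicate 2), 0.29 to 0.42 for JUNB, -0.115 to 0.109 for JUND (-0.055 without wild-type replicate 2), 0.46 to 0.73 for BATF, -1.80 to -1.25 for BATF3 and -0.72 to -0.50 for JDP2. Without wild-type replicate 1 edgeR called 0 genes (smallest adjusted p 0.0503), although 3496 had an unadjusted p under 0.05. There DESeq2 found 1073 genes higher and 963 lower, and limma-voom found 5, all lower.

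The replicate numbers were not taken to pair the libraries. The deviations of same-numbered libraries correlated at -0.092, 0.106 and 0.196. Knockout replicates 2 and 3 correlated best with their own number, and knockout replicate 1 with wild-type replicate 2. With the replicate block 1225 genes were higher and 1093 lower, no called member lost its call, and FLVCR1 (edgeR adjusted p = 0.0544) and RPS6KA1 (0.0528) lost theirs. Depth limits FOSB, with 19 to 52 reads per library, and the transcripts of BATF3 and FOS.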
